A study of Mus musculus with 2 samples.

Results

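The cells described here are non-dividing macrophages and monocytes of B16-F10 mouse melanomas that carried many transcripts of Spp1 or Arg1. They were chosen by molecule counts in each cell. A cell had at least 2 unique molecular identifiers (UMIs, each marking 1 captured transcript) of Csf1r, the receptor for the macrophage growth factor CSF1. It had at most 2 UMIs of the T cell genes Cd3e, Cd3d, Cd3g and Trac together, and fewer than 3 of the division genes Mki67 and Top2a. It had at most 1 UMI of the resident macrophage genes Cd163 and Cd209f and fewer than 10 of Retnla. The last gate, at least 10 UMIs of Spp1 plus Arg1, gave the population its name. Of 18112 kept cells, 879 passed all gates: 9 in the FDPS-knockout library and 870 in the control library.

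Spp1 encodes osteopontin, a secreted matrix protein that binds integrins and CD44. Arg1 encodes arginase 1, which splits arginine into ornithine and urea and can use up the arginine that T cells need. Tumour macrophages with these transcripts have been described in many cancers, often together with genes of low oxygen, glycolysis, lipid uptake and matrix remodelling. They usually arise from blood monocytes, which carry Ly6c2, and can go on to express the complement genes C1qa, C1qb and C1qc.

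Each group was a set of subcutaneous B16-F10 tumours collected on day 14 after injection, with 3 tumours per group. The FDPS-knockout group had the genotype label FDPS-knockout (KO) and the control group the label WT. FDPS makes farnesyl diphosphate in the mevalonate pathway, and per the design text the knockout was in the engrafted tumour line, while the sorted viable CD45+ cells were leukocytes of the host. Both groups thus share the tumour line, the site, the sort and the day, and mouse strain, age, sex and the number of knockout clones are not given in the sources used here. Each group gave 1 droplet library in which the 3 tumours could not be told apart, so no spread between tumours, and no test between groups, could be had. All intervals below are 95% intervals that cover counting error only. Where a count of 0 is turned into a fold, 3 UMIs are used in its place, a 1-sided bound that is narrower than these intervals.

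The files list 9130 barcodes for the knockout library, with 127186298 UMIs in all, and 10882 for the control library, with 208936136 UMIs. After the limits of at least 200 genes and under 10% mitochondrial UMIs, 8697 knockout and 9415 control cells were kept. The libraries shared 30 barcodes, of which 0 belonged to gated knockout cells and 2 to gated control cells. Gated cells had a median of 19145 UMIs (knockout) or 17636 (control), against medians of 12668 and 14626.5 in the other Csf1r cells of the same libraries. The number of gated knockout cells, 9 with 197626 UMIs in total, limits every value from them, since 1 UMI there equals 5.06 CPM (counts per 1e6 UMIs), the value that 1 UMI of Cxcl3 gave.

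The gated population was almost absent from the knockout library. Its share was 0.103% (0.0473 to 0.196) of kept knockout cells, against 9.24% (8.66 to 9.84) among kept control cells, 89.3-fold lower (46.8 to 196) in the knockout library. Fewer Csf1r cells passed the other gates in the knockout library, 590 against 2596. The Spp1 plus Arg1 gate was passed by 1.53% (0.700 to 2.88) of these in the knockout and by 33.5% (31.7 to 35.4) in the control library, 22.0-fold lower (11.5 to 48.2) in the knockout library. The shortfall was therefore present both in the number of Csf1r cells and within them. With 1 library per group, these are differences between libraries.

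Around the gate, the knockout library held 0 cells with 7 to 9 and 0 with 10 to 12 Spp1 plus Arg1 UMIs, and its lowest member had 13. The control library held 63 cells just below the gate (7 to 9 UMIs) and 65 just above it (10 to 12), so there the gate cut a continuous range. Spp1 plus Arg1 was at 0 in 531 of 590 knockout Csf1r cells and in 953 of 2596 control Csf1r cells. At the upper end, 0 knockout and 205 control cells had 100 or more.

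**Figure D1:**
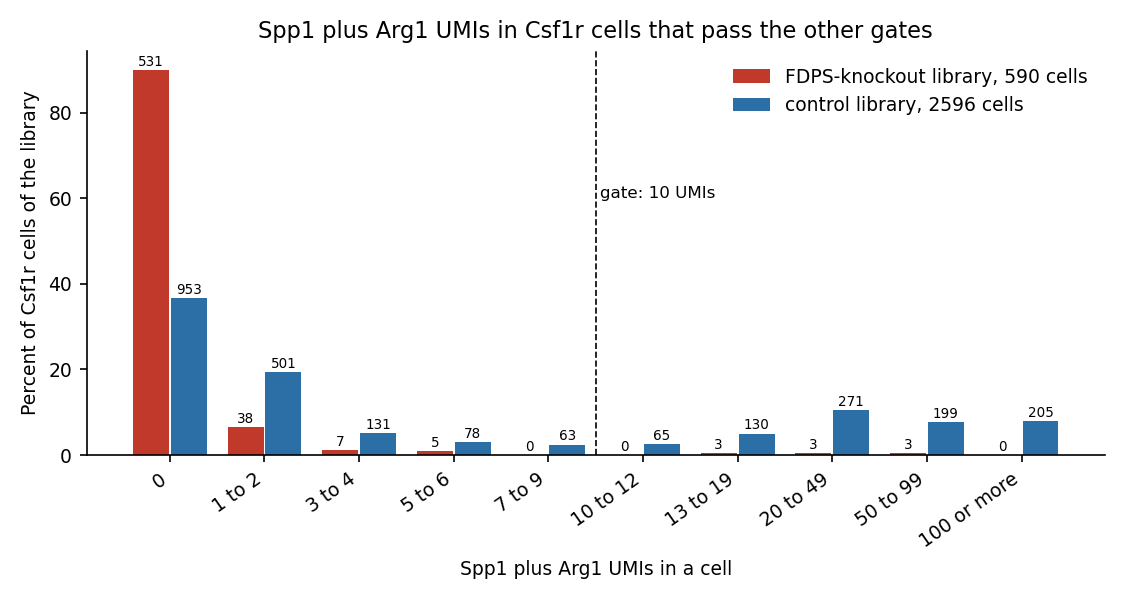
Share of Csf1r cells (percent of those passing all other gates, y axis) by Spp1 plus Arg1 UMIs per cell (x axis), for the FDPS-knockout library (590 cells) and the control library (2596 cells), with cell numbers above the bars. The dashed line is the gate at 10 UMIs, which 9 knockout and 870 control cells passed.

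The gates on Retnla and on Cd163 plus Cd209f removed far more Arg1 cells from the knockout library. Before these gates, 51 of 940 knockout cells (5.43%) and 879 of 2630 control cells (33.4%) had at least 10 Spp1 plus Arg1 UMIs. Of the 51 knockout cells, 42 failed the Retnla gate, and all 42 had at least 10 Arg1 UMIs, with a median of 24 and a maximum of 274. Only 1 of these 42 had at least 10 Spp1 UMIs. Retnla, a secreted protein induced by interleukin 4 in macrophages, had a median of 891.5 UMIs in them. Of the 42, 8 also failed the Cd163 plus Cd209f gate. In the control library 8 cells failed the Cd163 plus Cd209f gate and 1 the Retnla gate. The knockout library's Arg1 cells were thus mostly Retnla-high cells with little Spp1, which the gates do not count here. Transcripts of Retnla were widespread in the knockout library, with at least 1 UMI in 55.0% of its T cells and in 6 of its 9 gated cells, which had 1 or 2 each. A further 8 knockout and 121 control cells with at least 10 Spp1 plus Arg1 UMIs were left out as dividing.

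The label was checked against markers. All 10 macrophage and monocyte markers fixed for the check were detected in the gated cells of both libraries, at a summed 8228 CPM in knockout and 9104.5 CPM in control gated cells, against 128 CPM in control T cells (cells with at least 3 UMIs of the T cell genes and 0 of Csf1r). Csf1r is one of these markers and chose both kinds of cells. Without it the other markers summed to 7863 CPM in knockout and 8830 CPM in control gated cells, against 128 CPM in control T cells. Lyz2, the lysozyme of phagocytes, was present in 8 of 9 knockout and 851 of 870 control gated cells. Among control gated cells 636 (73.1%) carried at least 10 UMIs of C1qa, C1qb and C1qc together, and 135 (15.5%) carried at least 3 UMIs of Ly6c2 without that much C1q. In the other control Csf1r cells these shares were 54.8% and 24.4%. Of the 9 knockout gated cells, 6 met the C1q cut and 0 met the Ly6c2 cut, which leaves out C1q cells. The 9 had 1, 0, 29, 0, 0, 0, 54, 1 and 18 Ly6c2 UMIs, and those with 18 or more were C1q cells. The name macrophages and monocytes was thus met in the control library. The knockout cells were mostly C1q cells, some of which also carried Ly6c2.

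Summed over cells, genes of most other cell types were low in the gated cells. Some control gated cells had at least 10 UMIs of a list. They were 12 for type 1 dendritic cells, 27 for other conventional ones, 19 for neutrophils and 8 for B cells. For each other list of this paragraph there were at most 4. Neutrophil markers gave 134 CPM in control gated cells against 215 CPM in all kept control cells. The summed level of 8 T cell markers was 45.5 CPM in knockout and 29.0 CPM in control gated cells, against 4469 CPM in control T cells. The 6 NK cell markers summed to 20.2 CPM in knockout and 11.3 CPM in control gated cells, with Ncr1, Klre1, Eomes and Klra8 at 0 in the knockout gated cells. Summed over knockout gated cells, B cell markers gave 35.4 CPM, mast cell markers 10.1, neutrophil markers 70.8, markers of type 1 dendritic cells 152, of other conventional ones 91.1 and of mature ones 10.1 CPM. Fibroblast markers gave 15.2 CPM there, endothelial markers 45.5 and erythroid markers 0 CPM. In control gated cells the same lists gave 29.6 CPM for B cells, 0.626 for mast cells, 134 for neutrophils, 92.2 for type 1 dendritic cells, 64.3 for other conventional and 15.1 for mature ones. Fibroblast, endothelial and erythroid markers gave 2.73, 41.4 and 6.72 CPM there. Ly6g of neutrophils and Cpa3, Mcpt4, Tpsb2 and Fcer1a of mast cells were at 0 in both libraries. In knockout gated cells 4 of 6 B cell markers were at 0, as were 2 of 5 of type 1 dendritic cells. The same held for 4 of 6 of other conventional and 4 of 6 of mature ones. So it did for 5 of 6 fibroblast and 4 of 5 endothelial markers. The other members of these lists were detected, and a value of 0 in 9 cells says little. The control comparison given below was repeated without cells that had at least 10 UMIs of dendritic, B, NK or neutrophil markers. This setting, chosen after seeing the data, kept 856 gated and 1660 other Csf1r cells. It gave 79 genes called higher and 62 lower, against 83 and 65 with all cells. With an estimate of free RNA subtracted there were 86 and 76. Knockout comparisons were not repeated without such cells.

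Melanoma pigment genes were an exception in the control library. With Mitf, which macrophages express themselves, the list summed to 961 CPM in knockout and 700.5 CPM in control gated cells. Without Mitf, the pigment genes summed to 30.4 CPM in knockout gated cells and 216 CPM in control gated cells, where 90.3% of cells had at least 1 UMI. The other control Csf1r cells had 357 CPM and the control T cells 723 CPM, with a UMI in 89.6% and 79.1% of cells. The median was 2 UMIs in each of these kinds of cells. At least 10 were found in 22 gated, 42 other Csf1r and 29 T cells, and 1 T cell held 3284. By summed CPM the gated cells were the lowest, and by detection they lay above the T cells. These transcripts were thus found across cell types of that library. Their part in the results was not tested. The 6 plasmacytoid dendritic cell markers summed to 688 CPM in knockout and 1043 CPM in control gated cells, against 567 CPM in the other knockout and 841 CPM in the other control Csf1r cells. Most of this was Bst2, an interferon-induced gene of many cell types, at 455 CPM in knockout and 779 CPM in control gated cells. Without Bst2 and the transcription factor Tcf4, the list stood at 0 in knockout and 4.16 CPM in control gated cells.

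Spp1 and Arg1 were also counted in T cells for comparison. Among control T cells, 27.8% had a Spp1 UMI (34.2 CPM) and 11.2% an Arg1 UMI (11.1 CPM), at a median depth of 18349 UMIs. Single T cells held up to 179 Spp1 UMIs in the control and 124 in the knockout library. How much of these values came from outside the T cells was not tested. The control Csf1r cells below the gate had 30.6 CPM of Spp1 in 26.3% of cells, which is no more than in the T cells, and 35.04 CPM of Arg1 in 26.0%. The control gated cells had 1627 CPM of Spp1 and 2299 CPM of Arg1. In the knockout library the 9 gated cells had 182 CPM of Spp1 against 19.4 CPM in T cells, and 1685 CPM of Arg1 against 6.15 CPM. That the gated cells lie above the T cells in these genes follows from the gate and is given only to show the T cell level.

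Spp1 (ENSMUSG00000029304, GRCm38 chr5:104435118-104441050, plus strand) and Arg1 (ENSMUSG00000019987, chr10:24915221-24927484, minus strand) did not contribute alike. In knockout gated cells Spp1 stood at 182 CPM and Arg1 at 1685 CPM, against 1627 and 2299 CPM in control gated cells. Cell by cell, the 9 knockout cells had 0, 0, 7, 0, 0, 6, 0, 10 and 13 Spp1 UMIs and 97, 74, 57, 32, 25, 22, 17, 9 and 0 Arg1 UMIs. Arg1 thus reached 10 UMIs in 7 of them and Spp1 in 2, and no knockout cell had 10 of each. The control cells ranged from 0 to 570 Spp1 UMIs with a median of 10, and from 0 to 495 Arg1 UMIs with a median of 26.

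Among the 870 control gated cells, 282 (32.4%) had at least 10 UMIs of both genes, 173 (19.9%) of Spp1 alone, 386 (44.4%) of Arg1 alone, and 29 (3.33%) reached 10 only by the sum. Across all control Csf1r cells that passed the other gates, high Arg1 was more frequent in cells with high Spp1 than in those without. Of 455 such cells with at least 10 Spp1 UMIs, 62.0% (57.3 to 66.5) had at least 10 Arg1 UMIs, against 18.03% (16.4 to 19.7) of 2141 cells with fewer. Restricted to cells of 10000 to 40000 UMIs, which narrows differences in depth, the shares were 64.5% and 19.96%. Among C1q cells they were 63.8% and 23.9%.

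**Figure D2:**
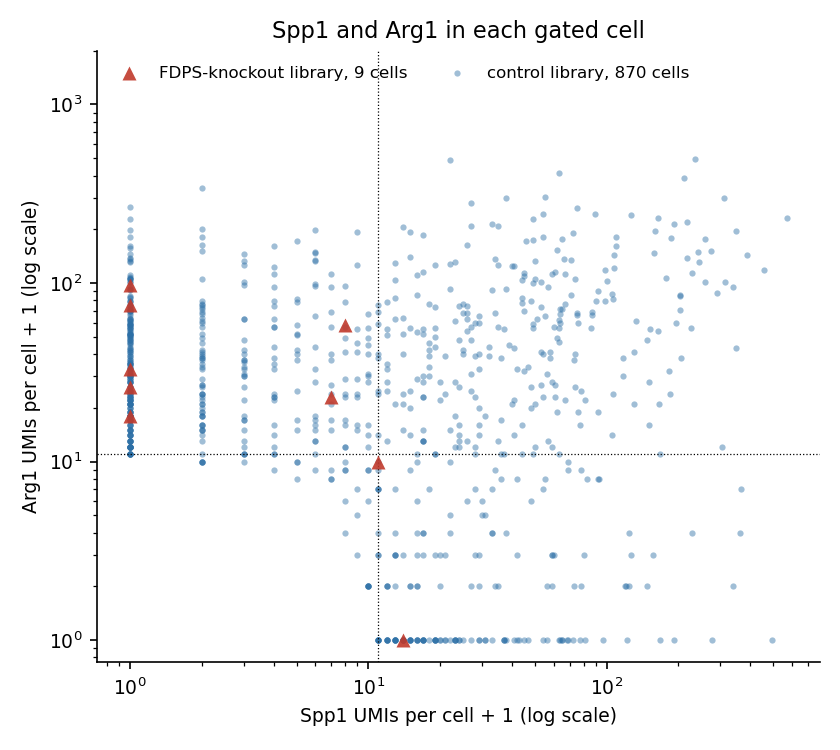
Spp1 UMIs (x axis) and Arg1 UMIs (y axis) in each gated cell, plus 1 on log scales, for the FDPS-knockout library (triangles, 9 cells) and the control library (points, 870 cells). Dotted lines mark 10 UMIs of each gene. In the control library 282 cells lie above both lines, and 0 knockout cells do.

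Gated cells were then compared with the other Csf1r cells of the same library, 581 knockout and 1726 control cells, which passed all gates but the last. UMIs were summed per group of cells. The log2 ratio of CPM plus 5 was taken, and a gene whose mean over both groups reached 20 CPM was called higher or lower at a 2-fold ratio. The Spp1 and Arg1 counts that chose the cells come from the same cells, so these differences are given as a description with no test. In the control library 83 of 6157 genes (1.35%) were called higher in gated cells and 65 (1.06%) lower, with a median log2 ratio over all tested genes of -0.11.

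Genes induced by low oxygen were among those with the highest ratios in gated cells of either library. Of 14 measured hypoxia genes outside glycolysis, 6 were called higher and 0 lower in the control library, with a median log2 ratio of 0.93. In the knockout library 12 of 14 were called higher and 0 lower, with a median of 2.39, beside 6.75% of 6135 genes called higher and 13.4% called lower there. Hilpda, which blocks lipid droplet breakdown, stood at 774 CPM in knockout gated and 34.1 CPM in knockout other Csf1r cells, and at 511 CPM in control gated and 136 CPM in control other Csf1r cells. The fold was 22.7 (18.5 to 27.7) in the knockout and 3.76 (3.63 to 3.91) in the control library. Hilpda transcripts were found in 8 of the 9 knockout gated cells and in 722 of the 870 control gated cells, so they were not the product of a few cells.

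Egln3, the oxygen sensor PHD3 that marks HIF for destruction, gave 349 CPM in knockout gated cells against 32.4 CPM in the others, and 156 CPM in gated against 41.9 CPM in other control cells. Vegfa, the main growth factor for blood vessels, gave 759 CPM in gated against 81.3 CPM in other knockout cells and 172 CPM in gated against 65.7 CPM in other control cells. It was present in all 9 knockout gated cells. Ndrg1, a stress protein, gave 390 CPM in gated against 43.1 CPM in other knockout cells and 271 CPM in gated against 116 CPM in other control cells. Bnip3, which directs mitochondria to autophagy, gave 369 CPM in gated against 46.8 CPM in other knockout cells and 336 CPM in gated against 153 CPM in other control cells. All of these lay past 2-fold in both libraries. Their levels in other Csf1r cells, except for Vegfa, were lower in the knockout than in the control library. Between gated cells, the log2 ratio of Egln3, knockout over control, was 1.14, but -0.45 without the Cd163, Cd209f and Retnla gates, and that of Vegfa was 2.11, and 0.88 without them.

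HIF, the transcription factor that carries the response to low oxygen, binds the core letters ACGTG. Promoter windows of 300 bases, from 250 before to 50 after a gene's start, were taken from RefSeq (GRCm38.p6) to show where these letters lie in genes of the hypoxia list, with a Spp1 window for the gate gene. The letters were searched on both strands, with any overlap counted. They occurred in 6447 of 32851 windows (19.6%), in the first listed window of 6 of 11 hypoxia genes found in the table (54.5%), 7 of 15 glycolysis genes (46.7%), 3 of 11 lipid genes (27.3%) and 0 of 8 MHC class II genes. A match describes the letters and not a bound site, and the base composition of the windows was not compared. In the lines below, capitals mark the letters on either strand, and every sequence reads 5′ to 3′ on the gene's own strand.
Hilpda, chr6:29272376-29272675, plus strand: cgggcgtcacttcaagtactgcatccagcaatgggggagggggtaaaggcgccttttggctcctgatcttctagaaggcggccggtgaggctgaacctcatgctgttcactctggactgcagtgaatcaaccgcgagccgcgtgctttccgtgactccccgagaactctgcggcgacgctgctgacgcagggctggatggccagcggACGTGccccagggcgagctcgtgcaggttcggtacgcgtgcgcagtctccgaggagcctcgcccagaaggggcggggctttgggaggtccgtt
Egln3, chr12:54203825-54204124, minus strand: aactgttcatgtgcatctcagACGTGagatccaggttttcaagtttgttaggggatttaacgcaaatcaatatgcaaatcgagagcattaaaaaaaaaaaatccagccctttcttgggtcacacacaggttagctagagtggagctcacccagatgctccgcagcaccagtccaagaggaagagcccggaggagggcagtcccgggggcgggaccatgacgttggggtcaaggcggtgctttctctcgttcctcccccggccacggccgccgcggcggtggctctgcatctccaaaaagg
Bnip3, chr7:138909457-138909756, minus strand: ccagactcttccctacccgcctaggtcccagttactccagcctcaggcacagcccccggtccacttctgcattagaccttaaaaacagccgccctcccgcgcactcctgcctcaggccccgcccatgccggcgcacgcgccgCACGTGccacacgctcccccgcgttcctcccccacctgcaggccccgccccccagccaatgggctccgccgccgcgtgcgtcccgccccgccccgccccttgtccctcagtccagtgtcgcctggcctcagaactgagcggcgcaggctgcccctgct
Spp1, chr5:104434861-104435160, plus strand: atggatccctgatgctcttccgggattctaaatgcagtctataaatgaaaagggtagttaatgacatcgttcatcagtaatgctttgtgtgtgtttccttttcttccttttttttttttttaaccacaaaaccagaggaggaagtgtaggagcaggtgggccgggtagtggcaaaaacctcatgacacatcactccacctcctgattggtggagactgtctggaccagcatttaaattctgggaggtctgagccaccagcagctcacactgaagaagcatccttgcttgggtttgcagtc
The Hilpda window is the second of 2 listed, and its first held 0 matches. Egln3 held 1 match. Bnip3 held CACGTG, which counts as 1 match on each strand. Both Spp1 windows held 0 matches, which says only that these letters are not in those windows.

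Of 15 measured genes of glucose uptake and glycolysis, 13 were called higher and 0 lower in knockout gated cells, with a median log2 ratio of 1.70. In control gated cells 0 were called in either direction, though 14 of the 15 ratios were above 0, with a median of 0.60. Slc16a3, which exports lactate, gave 344 CPM in gated against 49.9 CPM in other knockout cells and 222 CPM in gated against 133 CPM in other control cells. Pgk1, an ATP-forming step of glycolysis, gave 1118 CPM in gated against 177 CPM in other knockout cells and 968 CPM in gated against 587 CPM in other control cells. Slc2a1, the main glucose importer, gave 324 CPM in gated against 110 CPM in other knockout cells and 350 CPM in gated against 185 CPM in other control cells. For these genes the gated cells of the libraries lay within 2-fold of each other, and the wide knockout ratios went with low values in the knockout other Csf1r cells.

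Of 16 genes of fatty acid handling, cholesterol export and the Trem2 program of lipid-laden macrophages, 7 were called higher and 0 lower in control gated cells, with a median log2 ratio of 0.79. In the knockout library 5 of 15 measured were called higher and 1 lower. Fabp5, a fatty acid carrier, stood at 147 CPM in knockout gated against 118 CPM in knockout other Csf1r cells, and at 2772 CPM in gated against 878 CPM in other control cells, a fold of 3.16 (3.11 to 3.20). Cd36, a fatty acid and lipoprotein receptor, gave 132 CPM in gated against 74.98 CPM in other knockout cells and 401 CPM in gated against 159 CPM in other control cells. Abca1, which exports cholesterol, gave 430 CPM in gated against 89.1 CPM in other knockout cells and 304 CPM in gated against 119 CPM in other control cells. Gpnmb, a membrane glycoprotein of lipid-laden macrophages, gave 187 CPM in gated against 14.8 CPM in other knockout cells and 371 CPM in gated against 161 CPM in other control cells. Fabp5 and Cd36 were therefore past 2-fold in the control library and not in the knockout library, and Abca1 and Gpnmb were past 2-fold in both libraries. The 9 knockout gated cells had 0, 0, 4, 0, 20, 5, 0, 8 and 0 Gpnmb UMIs. The cell with 20 had 0 UMIs of Lyz2, 0 of C1q and 2 of Csf1r.

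Matrix proteases and matrix proteins made up another group. In the control library 6 of 12 measured genes were called higher and 0 lower in gated cells, with a median log2 ratio of 0.84, and in the knockout library 7 of 11 were called higher and 1 lower. Mmp12, the macrophage elastase, gave 75.9 CPM in gated against 10.6 CPM in other knockout cells and 542 CPM in gated against 73.1 CPM in other control cells, with transcripts in 315 of 870 control gated cells. The 9 knockout gated cells had 0, 0, 10, 0, 2, 0, 0, 3 and 0 Mmp12 UMIs. Mmp13, a collagenase, gave 124 CPM in gated against 22.5 CPM in other control cells, and 0 UMIs were found in the 9 knockout gated cells. Thbs1, thrombospondin 1, gave 1113 CPM in gated against 118 CPM in other knockout cells and 456 CPM in gated against 104 CPM in other control cells.

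Arginine and polyamine genes besides Arg1 were mostly within 2-fold in the control library, where 2 of 12 were called higher and 0 lower with a median log2 ratio of 0.13. Those called were Slc7a2, an importer of arginine, at 128 CPM in gated against 33.3 CPM in other cells, and Nos2, the inducible nitric oxide synthase that competes with arginase for arginine, at 373 CPM in gated against 135 CPM in other cells. In the knockout library Slc7a2 gave 207 CPM in gated against 9.03 CPM in other cells, with 78.0% of its UMIs from 1 cell, and Nos2 197 CPM in gated against 35.01 CPM in other cells. Arg2, the mitochondrial arginase, gave 111 CPM in gated against 9.53 CPM in other cells there and 30.0 CPM in gated against 13.4 CPM in other control cells. The receptors of osteopontin showed no common shift, with 0 called higher and 1 lower of 7 in each library. The lower one was Itga4, the alpha 4 integrin chain, at 213 CPM in gated against 589 CPM in other knockout cells and 86.6 CPM in gated against 212 CPM in other control cells. Cd44 stood at 931 CPM in gated against 470 CPM in other knockout cells and 364 CPM in gated against 399 CPM in other control cells.

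Inflammatory cytokines and their feedback genes were higher in part. In the control library 5 of 15 measured were called higher and 0 lower with a median log2 ratio of 0.85, and in the knockout library 10 of 13 were called higher and 1 lower. Cxcl2, which attracts neutrophils, gave 516 CPM in gated against 165 CPM in other knockout cells and 509 CPM in gated against 68.7 CPM in other control cells, and 1 of the 9 knockout cells held 93.1% of its UMIs. Cxcl3, a related chemokine, gave 132 CPM in gated against 6.82 CPM in other control cells, a fold of 19.3 (16.8 to 22.4), but only 130 of the 870 control gated cells had a UMI of it. Il1b gave 2920 CPM in gated against 602 CPM in other knockout cells and 273 CPM in gated against 286 CPM in other control cells. The 9 knockout gated cells had 110, 0, 7, 164, 0, 32, 73, 0 and 191 Il1b UMIs, so 6 of them carried it.

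Chemokines for other leukocytes split. Of 10 measured in the control library, 4 were called higher and 1 lower in gated cells. Ccl6 gave 1629 CPM in gated against 468 CPM in other knockout cells and 1746 CPM in gated against 598 CPM in other control cells. Ccl9 gave 784 CPM in gated against 222 CPM in other knockout cells and 821 CPM in gated against 302 CPM in other control cells, and Ccl7, which attracts monocytes, 197 CPM in gated against 78.6 CPM in other knockout cells and 1343 CPM in gated against 605 CPM in other control cells. Cxcl9, the interferon-gamma-induced chemokine that attracts T cells through CXCR3, ran the other way at 531 CPM in gated against 764 CPM in other knockout cells and 356 CPM in gated against 833 CPM in other control cells. It was called lower in the control library, and in the knockout library 1 cell held 93.3% of its UMIs.

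MHC class II genes, which present antigen to helper T cells, leaned lower in the control gated cells. Of 8 measured, 1 had a ratio above 0, and 0 were called higher and 2 lower, with a median log2 ratio of -0.61. Ciita, the master regulator of the class II genes, gave 44.3 CPM in gated against 142 CPM in other cells, and H2-DMb1, which loads peptides, 152 CPM in gated against 311 CPM in other cells. In the knockout library Ciita was also lower, at 187 CPM in gated against 470 CPM in other cells, but the list's median was 0.20 and H2-Ab1, a class II chain, stood at 4802 CPM in gated against 3796 CPM in other cells. Of 9 measured sterol genes 0 had a ratio above 0 in the control library, where 1 was called lower and the median was -0.84. The lower one was Cyp51, a late step of cholesterol synthesis, at 12.6 CPM in gated against 35.5 CPM in other cells. Fdps itself stood at 10.1 CPM in gated against 29.3 CPM in other knockout cells, from 2 UMIs in gated cells, and at 31.4 CPM in gated against 67.5 CPM in other control cells. These are host cells, so Fdps does not check the knockout label.

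Identity genes differed little as lists. Of 16 resident macrophage genes measured in the control library, 1 was called higher and 1 lower, and of 12 monocyte genes likewise 1 and 1. The higher ones were Pf4, a chemokine of platelets and of some macrophages, at 1561 CPM in gated against 300 CPM in other cells, and F13a1, a clotting factor chain found in monocytes, at 556 CPM in gated against 220 CPM in other cells. The lower ones were Cx3cr1, the fractalkine receptor, at 25.1 CPM in gated against 57.3 CPM in other cells, and Hp, haptoglobin, at 20.3 CPM in gated against 55.8 CPM in other cells. Interferon-stimulated genes had 0 of 19 called, with a median log2 ratio of 0.35, and Rsad2, an antiviral enzyme, at 832 CPM in gated against 448 CPM in other cells was the farthest out.

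Other lists held single genes that stood apart in the control library. Ctsl, a lysosomal protease, gave 1421 CPM in gated against 319 CPM in other cells and was the only 1 of 15 lysosome genes called. Hmox1, haem oxygenase 1, gave 1709 CPM in gated against 592 CPM in other cells, and Slc7a11, the cystine importer, 57.5 CPM in gated against 21.0 CPM in other cells, and these were the 2 of 13 stress genes called. Ier3 gave 418 CPM in gated against 146 CPM in other cells and Dusp1 249 CPM in gated against 120 CPM in other cells, the 2 called of 12 immediate early and heat shock genes. Of 12 checkpoint ligands and suppressive mediators 0 were called. Cd274, which encodes PD-L1, stood at 825 CPM in gated against 256 CPM in other knockout cells and at 610 CPM in gated against 462 CPM in other control cells. Iron genes (0 of 4), DNA replication genes (0 of 5) and transcription factors (0 of 21) had none called in the control library, though Fth1, the ferritin heavy chain, stood at 19834 CPM in gated against 11558 CPM in other cells. The transcription factors with the highest levels in control gated cells were Cebpb at 982 CPM in gated against 674 CPM in other cells, Mitf at 484 CPM in gated against 353 CPM in other cells, and Spi1 (PU.1), which sets macrophage fate, at 389 CPM in gated against 522 CPM in other cells. Hif1a stood at 395 CPM in gated against 220 CPM in other knockout cells and 258 CPM in gated against 180 CPM in other control cells.

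**Figure D3:**
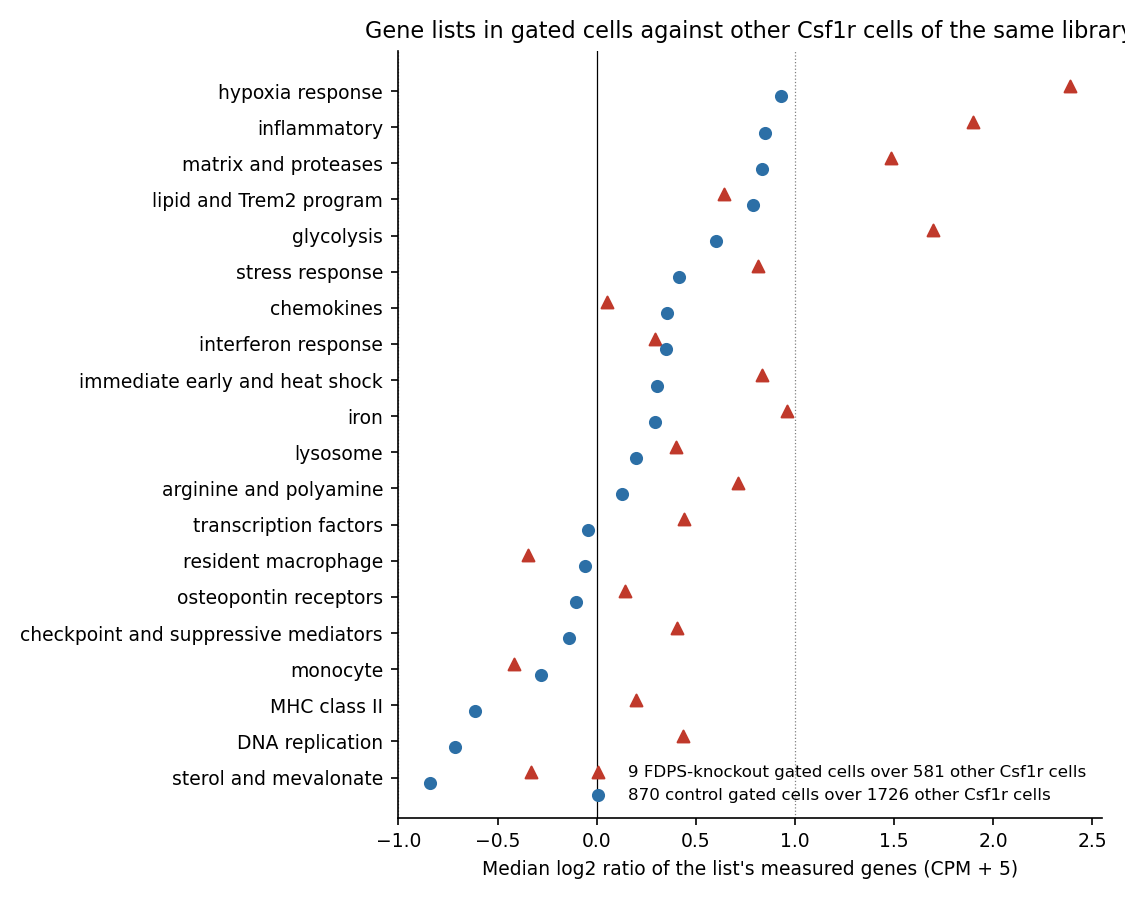
Median log2 ratio of CPM plus 5 (x axis) of the measured genes of each list (y axis), gated over other Csf1r cells, within the FDPS-knockout library (triangles, 9 against 581 cells) and within the control library (points, 870 against 1726 cells). Hypoxia genes lead in both, with medians of 2.39 and 0.93, and sterol genes lie lowest in the control library at -0.84.

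Outside the lists, and leaving out antisense, predicted and other genes without a protein name, the genes with the highest ratios in control gated cells were Pdpn, Ppbp, Rgcc, Il7r, Inhba, Sdc1, Lhfpl2 and Chst11. Pdpn, podoplanin, a membrane protein that activates platelets, gave 121 CPM in gated against 3.34 CPM in other knockout cells and 143 CPM in gated against 13.6 CPM in other control cells. Its transcripts were in 4 of 9 knockout and 429 of 870 control gated cells. Il7r, the interleukin 7 receptor, gave 248 CPM in gated against 26.6 CPM in other knockout cells and 284 CPM in gated against 69.3 CPM in other control cells. Il7r is also a T cell gene, and knockout T cells had 242 CPM of it and control T cells 51.2 CPM, so the knockout gated cells lay close to the T cells of their library and the control gated cells above theirs. Inhba, the activin A chain, gave 109 CPM in gated against 24.3 CPM in other cells, from 134 of the 870 cells. Ppbp, a platelet chemokine, gave 39.9 CPM in gated against 1.98 CPM in other cells, but from only 51 of the 870 cells, 1 of which held 18.97% of its UMIs.

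Among the 8 genes with the lowest ratios were Adgre4, Sox5, Negr1, Ust, Grk3, Clec4b1 and Grap2. Adgre4, an adhesion receptor of monocytes and macrophages, gave 25.3 CPM in gated against 176 CPM in other knockout cells, from 5 UMIs in 1 gated cell, and 2.45 CPM in gated against 44.1 CPM in other control cells. Negr1, a cell adhesion protein, gave 55.7 CPM in gated against 277 CPM in other knockout cells and 27.2 CPM in gated against 135 CPM in other control cells. Adgre4 and Negr1 were thus lower in gated cells of both libraries.

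This contrast was made within each library, so the libraries could be set side by side gene by gene. Of 5613 genes measured in both, 69 were called higher in control gated cells, and 53 of these (76.8%) were also called higher in knockout gated cells, where 6.13% of all 5613 genes were. These 53 made up 15.4% of the 344 genes called higher in the knockout library. Of 60 genes called lower in the control library, 45 (75%) were called lower in the knockout library, beside 13.1% of all. They made up 6.11% of the 736 genes called lower there. In the opposite direction, 1 gene was called higher in control and lower in knockout gated cells, Pf4, and 0 the other way. The shared higher genes included Pdpn, Mmp12, Cxcl2, Ctsl, Rgcc, Thbs1, Il7r, Hilpda, Clec4d, Slc7a2, Egln3 and Vegfa. For Mmp12, Cxcl2 and Slc7a2 most of the knockout UMIs came from 1 cell each. The few knockout cells that passed the gates thus differed from their neighbours in many of the same genes as the control cells did, with Pf4 as the exception at 20.2 CPM, from 4 UMIs, against 118 CPM in the knockout library. Its log2 ratio there was -2.28, but 0.72 with a gate at 5 UMIs and 0.17 without the Cd163, Cd209f and Retnla gates.

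Levels also differed by the number of Spp1 plus Arg1 UMIs in control Csf1r cells. Summed hypoxia genes stood at 2134 CPM in the 953 cells with 0 such UMIs, 3026 CPM in the 272 cells with 3 to 9, 3995 CPM in the 195 cells with 10 to 19 and 4787 CPM in the 205 cells with 100 or more. Summed glycolysis genes stood at 8133, 10524, 12105 and 15397 CPM in the same classes. Hilpda ran at 105, 226, 421 and 615 CPM. Sterol genes ran the other way, at 605, 479, 343 and 274 CPM, as did Cxcl9 at 960, 687, 413 and 313 CPM. Mmp12 did not follow the order to the end, with 776 CPM in cells of 50 to 99 and 674 CPM in cells of 100 or more. Median depth was 13898 UMIs in the lowest and 20528 in the highest class. The share of cells with at least 10 C1q UMIs was 48.8% in the lowest and 74.1% in the highest class. The parts of depth and of this mix of cells in these trends were not tested.

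**Figure D4:**
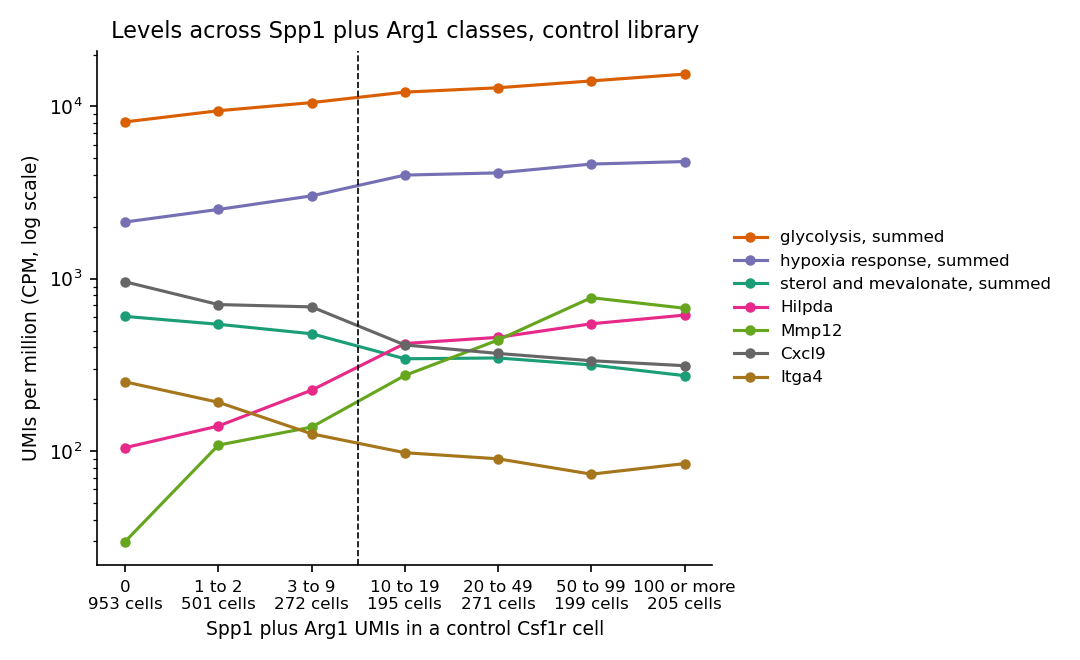
Levels in CPM (y axis, log scale) of summed gene lists and of single genes in control Csf1r cells by Spp1 plus Arg1 UMIs (x axis, cell numbers below). The dashed line is the gate. Hypoxia and glycolysis genes stand higher, and sterol genes and Cxcl9 lower, towards the right.

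The other control Csf1r cells are a mixture, so gated cells were also set against cells of like identity. Gated cells with at least 10 C1q UMIs (636 cells) were compared with C1q phagocytes below the gate (946 cells), and 93 of 6124 genes (1.52%) were called higher and 42 (0.686%) lower. Gated cells with Ly6c2 and little C1q (135 cells) were compared with Ly6c2 monocytes below the gate (421 cells), and 208 of 6018 genes (3.46%) were called higher and 203 (3.37%) lower. Set against C1q phagocytes alone, all gated cells had 113 of 6133 genes (1.84%) called higher and 54 (0.88%) lower, and set against Ly6c2 monocytes alone 234 of 6057 (3.86%) and 240 (3.96%). Against the monocytes 10 of 15 resident macrophage genes were higher and 8 of 12 monocyte genes lower. The hypoxia list had 5 of 15 genes called higher and 0 lower among C1q cells, with a median log2 ratio of 0.81, and 8 of 13 higher and 0 lower among Ly6c2 cells, with a median of 1.13. Hilpda gave 460 CPM in gated C1q cells against 126 CPM in C1q phagocytes, and 616 CPM in gated Ly6c2 cells against 191 CPM in Ly6c2 monocytes. The hypoxia genes were therefore higher on either side.

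Lipid genes showed the same pattern, with 6 of 16 called higher among C1q cells and 10 of 15 among Ly6c2 cells, and 0 lower in each. Fabp5 gave 2922 CPM in gated C1q cells against 997 CPM in C1q phagocytes, and 1979 CPM in gated Ly6c2 cells against 663 CPM in Ly6c2 monocytes. MHC class II genes had 0 of 8 called in C1q cells, with a median log2 ratio of -0.46, and 6 of 8 called lower in Ly6c2 cells, with a median of -1.17. H2-Ab1 gave 926 CPM in gated Ly6c2 cells against 2025 CPM in Ly6c2 monocytes, and 1514 CPM in gated C1q cells against 1997 CPM in C1q phagocytes. Monocyte genes ran in opposite directions, with 3 of 10 called higher in gated C1q cells and 3 of 12 lower in gated Ly6c2 cells. Sterol genes had 0 of 8 called in C1q cells, with a median of -0.24, and 6 of 12 called lower in Ly6c2 cells, with a median of -1.02. Vcan, a matrix proteoglycan of monocytes, gave 43.7 CPM in gated C1q cells against 25.1 CPM in C1q phagocytes, and 178 CPM in gated Ly6c2 cells against 276 CPM in Ly6c2 monocytes.

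Among control gated cells, those with Spp1 alone (173 cells) and those with Arg1 alone (386 cells) differed in few genes. Of 5973 genes, 17 (0.285%) were called higher and 15 (0.251%) lower with Spp1 alone. The genes higher with Spp1 alone were led by the heat shock proteins Hspb1, at 74.96 CPM with Spp1 alone and 13.5 CPM with Arg1 alone, and Hsph1, at 108 CPM with Spp1 alone and 34.4 CPM with Arg1 alone. Hspb1 came from only 20 of the 173 cells, 1 of which held 38.7% of its UMIs. Ccl5, which attracts T cells, gave 353 CPM with Spp1 alone and 163 CPM with Arg1 alone. Ly6c2, the monocyte marker, gave 490 CPM with Spp1 alone and 260 CPM with Arg1 alone. The genes lower with Spp1 alone included 4 of 12 matrix genes, among them Mmp12 at 215 CPM with Spp1 alone and 600 CPM with Arg1 alone. Pf4 gave 512 CPM (Spp1 alone) and 1383 CPM (Arg1 alone), and Hmox1 730 CPM (Spp1 alone) and 1693 CPM (Arg1 alone). Cells with Arg1 alone thus carried more of the proteases, Pf4 and Hmox1, and cells with Spp1 alone more Ccl5 and Ly6c2. The Ccl5 difference depended on processing, with a log2 ratio of 1.09 that ranged from 0.08 to 1.17 over the alternatives. That of Ly6c2 ranged from 0.74 to 1.13. All 19 interferon-stimulated genes had a ratio above 0 with Spp1 alone, but 0 were past 2-fold and the median log2 ratio was 0.52.

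Cells with both transcripts (282 cells) resembled the Arg1 cells in these genes and went beyond them in some. Their medians were 43 Spp1 and 55 Arg1 UMIs, against 21 Spp1 UMIs with Spp1 alone and 32 Arg1 UMIs with Arg1 alone. From gated cells with a sum of 10 to 19 to those with 100 or more, Pf4 went from 464 to 3466 CPM. Pdpn went from 75.2 to 253 CPM and Ctsl from 796 to 2279 CPM. The part of the higher sum in cells with both was not tested. Over Spp1 alone, 38 of 5906 genes (0.643%) were called higher and 14 (0.237%) lower. Among the higher genes were 7 of 13 matrix genes, with a median log2 ratio of 1.21 for that list. Over Arg1 alone, 13 of 5922 genes (0.220%) were called higher and 7 (0.118%) lower. Cxcl3 gave 275 CPM in cells with both, 86.7 CPM with Arg1 alone and 21.1 CPM with Spp1 alone. For cells with both, Arg1 alone and Spp1 alone, in that order, Pf4 gave 2541, 1383 and 512 CPM, Pdpn 254, 108 and 53.5 CPM, and Ctsl 2143, 1234 and 787 CPM. Ppbp gave 101 CPM in cells with both, 14.4 CPM with Arg1 alone and 4.23 CPM with Spp1 alone. Hypoxia genes had 0 of 15 called in Spp1 over Arg1 cells, but only 1 had a ratio above 0 and the median was -0.26, and glycolysis genes likewise had 0 of 15 called, 1 above 0 and a median of -0.34. In cells with both over Spp1 alone, 13 of 14 hypoxia genes had a ratio above 0, with 0 called and a median of 0.43. Melanoma pigment transcripts summed to 153 CPM in cells with both, 139 CPM with Spp1 alone and 305 CPM with Arg1 alone. In the Arg1 class 1 cell held 1159 of these UMIs, and without it the value was 158 CPM, near those of the other classes.

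**Figure D5:**
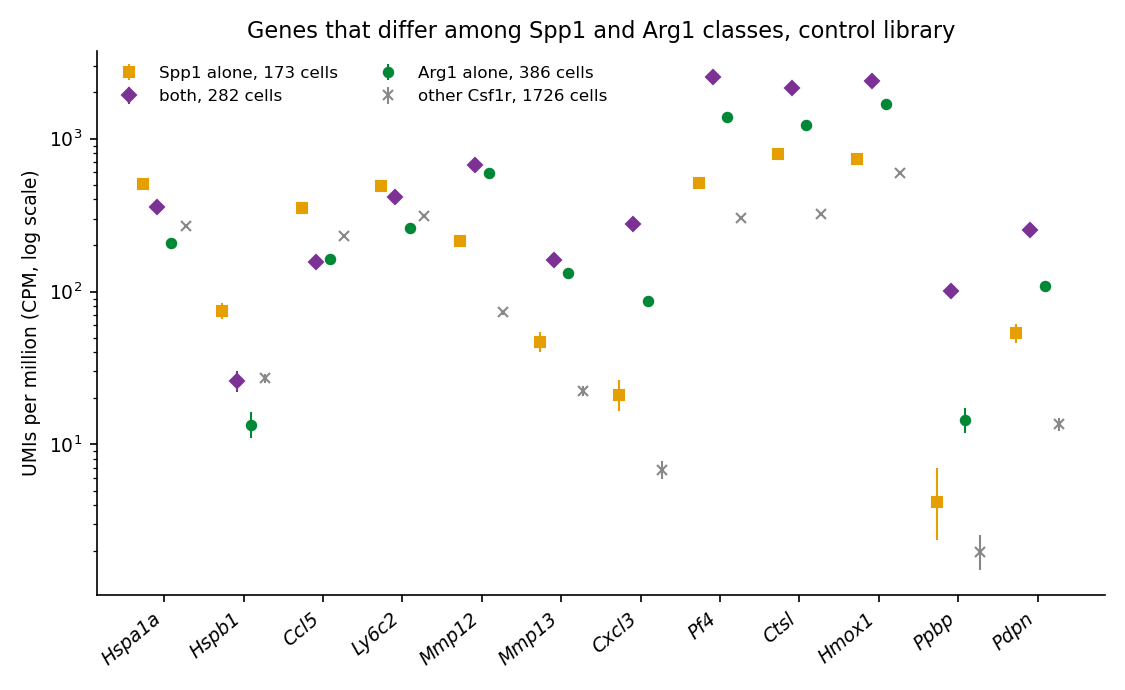
Levels in CPM (y axis, log scale) of named genes (x axis) in control gated cells with Spp1 alone (173), both (282) and Arg1 alone (386), and in other control Csf1r cells (1726). Bars are exact Poisson 95% intervals of the summed UMIs. Pf4, Ctsl and Pdpn are highest with both, and Hspb1 with Spp1 alone.

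Between the libraries, the 9 knockout gated cells differed from the 870 control gated cells in many genes, with 426 of 5888 (7.24%) called higher and 457 (7.76%) lower in the knockout cells. At 20 CPM a gene has about 4 UMIs in 9 cells, so single genes of low level are uncertain. Immediate early and heat shock genes, which respond within minutes of stimulation, had 9 of 12 called higher and 0 lower, with a median log2 ratio of 2.15. Fos gave 2439 CPM in knockout and 318 CPM in control gated cells, 7.67-fold higher (6.97 to 8.42), in all 9 knockout cells. Ier3 gave 2651 CPM in knockout and 418 CPM in control gated cells. The other Csf1r cells differed between the libraries in the same lists, with 8 of 13 called higher and 0 lower beside 5% of 6403 genes called higher, and Fos there gave 791 CPM in knockout and 210 CPM in control cells. This difference was therefore also seen in cells below the gate.

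MHC class II genes had 7 of 8 called higher and 0 lower in knockout over control gated cells, with a median log2 ratio of 1.51. H2-Ab1 gave 4802 CPM in knockout and 1413 CPM in control gated cells, 3.40-fold higher (3.18 to 3.63), and was present in all 9 knockout cells. In the other Csf1r cells 2 of 9 were called higher, with a median of 0.85. Inflammatory genes had 6 of 15 called higher and 2 lower. Osm, oncostatin M, gave 567 CPM in knockout and 28.01 CPM in control gated cells, in 7 of the 9 knockout cells with 48.2% of UMIs from 1 of them. Ptgs2, the prostaglandin synthase COX-2, gave 1402 CPM in knockout and 169 CPM in control gated cells, and Il1b 2920 CPM in knockout and 273 CPM in control ones.

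Lower in knockout gated cells were lipid genes, with 0 called higher and 7 lower of 16 and a median log2 ratio of -0.83. Fabp5 gave 147 CPM in knockout and 2772 CPM in control gated cells. The same list had 0 higher and 9 lower of 16 in the other Csf1r cells, with a median of -1.03, beside 3.97% of genes called lower there, and Fabp5 gave 118 CPM in knockout and 878 CPM in control cells of that kind. Interferon-stimulated genes had 0 higher and 7 lower of 19 in gated cells, with a median of -0.77, and Isg15 gave 577 CPM in knockout and 1325 CPM in control gated cells. In the other Csf1r cells this list had 0 higher and 6 lower of 19, with a median of -0.61. Resident macrophage genes had 0 higher and 6 lower of 15 in gated cells, with a median of -0.84, and 1 higher and 5 lower of 16 in the other Csf1r cells, with a median of -0.40. Before both comparisons, the Cd163 plus Cd209f gate had removed 122 knockout and 30 control cells, and the Retnla gate 228 and 4. The part of these gates in the resident list was not tested. Over the alternatives, among them leaving these gates out, the median in gated cells ranged from -1.34 to -0.77. Pf4 gave 20.2 CPM in knockout and 1561 CPM in control gated cells. Folr2, a folate receptor of resident macrophages, had 0 UMIs in knockout and 111 CPM in control gated cells, at least 7.31-fold lower in the knockout cells when set against 3 UMIs. Ccl8, a chemokine, gave 5.06 CPM, from 1 UMI, in knockout and 1062 CPM in control gated cells.

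Hypoxia genes did not follow the same path in gated and other cells. In knockout over control gated cells 3 of 14 were called higher and 0 lower, with a median log2 ratio of 0.44, and glycolysis genes had 0 of 15 called. Among C1q cells alone the hypoxia median was 0.06. In the other Csf1r cells 0 of 13 hypoxia genes were called higher and 5 lower, with a median of -0.89, and 10 of 15 glycolysis genes were called lower, with a median of -1.33. Vegfa gave 759 CPM in knockout and 172 CPM in control gated cells, and 81.3 CPM in knockout and 65.7 CPM in control other Csf1r cells. Hilpda gave 774 CPM in knockout and 511 CPM in control gated cells, and 34.1 CPM in knockout and 136 CPM in control other Csf1r cells. The gated cells of the libraries shared their high hypoxia levels, whereas the cells below the gate did not. With 9 cells and 1 library per group, whether this difference exceeds the spread between tumours could not be tested.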

How the data were processed

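Viable CD45+ cells of FDPS-knockout and control B16-F10 tumours were measured as 1 droplet library per group. The deposited values are counts of UMIs per gene and barcode, which per the file headers come from Cell Ranger 7.2.0 and are on mm10, per the submitters' processing notes. Gene positions came from GENCODE on GRCm38, in which 32158 of 32285 gene identifiers were found. The members and gene lists were chosen with earlier results of these data known. No clustering was used.

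UMIs were summed over the cells of a group and scaled to CPM. Shares have Clopper-Pearson intervals, CPM exact Poisson intervals and folds conditional binomial intervals. Log2 ratios used a pseudocount of 5 CPM and genes of at least 20 CPM. Scripts were checked on simulated counts. Named were the genes of the gates, up to 4 members per list by size of log2 ratio in a comparison, members a background clause needs, and outside the lists the 8 highest and 8 lowest genes. Some genes are not reported here. Pf4, with its opposite signs, was singled out after its values were seen, as were Bnip3 in the promoter search, Vcan, Gpnmb and genes set beside other libraries or cells.

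Doublets were scored per library (Scrublet in scanpy 1.11.5). The automatic threshold marked too few cells, so the top 7.30% of knockout and 8.71% of control cells were removed as an alternative, which took 0 of 9 and 68 of 870 gated cells. Free RNA was estimated at 2.71% of UMIs in knockout and 2.34% in control gated cells. Python 3.11.15, numpy 2.4.6, scipy 1.17.1, pandas 2.3.3 and matplotlib 3.10.9 were used. Alternatives changed the gates, filters, scaling, depth and pseudocount.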

Additional observations from a re-analysis of the deposited data

Results flagged for a closer look

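Pf4, a chemokine of platelets and of some macrophages, was the 1 gene called in opposite directions by the gated cells of the libraries. Its log2 ratio of gated over other Csf1r cells was -2.28 in the FDPS-knockout library, from 4 UMIs in 3 of 9 gated cells, and 2.36 in the control library, where 613 of 870 gated cells carried it. The difference between the libraries was not tested, since each group had 1 library.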

How the results depend on the processing

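No paired analysis was possible because each group had 1 library, and for the same reason no replicate could be left out. Of 14 alternative shares 8 stayed within the interval of the value reported, of 134 alternative counts of called genes 96 stayed within 1.5 times, and of 1340 alternative list medians 1203 stayed close. Of the alternative values of single genes 1695 stayed close, 965 moved and 6 changed sign from a main ratio of at least 2-fold. Sign changes of smaller main ratios were counted among the close or moved values. The cause was not tested for any value below, beyond what the setting itself does to the number of cells or genes.
The share of gated cells in the control library was 10.7% with a gate of 5 UMIs, 7.17% with 20, 7.83% with 10 per 10000 UMIs, 8.52% with a mitochondrial limit of 20% and 10.5% with one of 5%. In the knockout library it was 0.586% without the Cd163, Cd209f and Retnla gates. For knockout gated over knockout other Csf1r cells, 547 genes were lower with a gate of 5 UMIs and 1271 with 20, and 196 were higher without the Cd163, Cd209f and Retnla gates. Genes of at least 5 CPM gave 648 higher and 1632 lower, genes of at least 50 CPM 271 and 423, cells thinned to 5000 UMIs 968 higher, and a 1.5-fold call 957 and 1653. For knockout over control gated cells, 718 were lower with a gate of 20 UMIs. Genes of at least 5 CPM gave 729 higher and 1021 lower, of at least 50 CPM 251 and 197, thinned cells 977 and 780, and a 1.5-fold call 1100 and 1093. For control gated over control other Csf1r cells, 105 were lower with genes of at least 5 CPM, 34 with 50 CPM, 105 after thinning and 116 with cells weighted equally, and a 1.5-fold call gave 250 higher and 323 lower. With C1q cells on both sides 42 were lower, and with Ly6c2 cells 208 were higher and 203 lower, both settings chosen after seeing the data. For Spp1 alone over Arg1 alone, a gate of 20 UMIs gave 32 higher and 29 lower, 10 per 10000 UMIs 31 and 28, genes of at least 5 CPM 32 and 37, and of at least 50 CPM 9 higher. There, 25 were lower with a pseudocount of 1 CPM, 32 after thinning and 24 in cells of 10000 to 40000 UMIs.
Signs that reversed from a main ratio of at least 2-fold are given here as log2 ratios. Pf4 in knockout gated over other Csf1r cells was 0.72 with a gate of 5 UMIs and 0.17 without the Cd163, Cd209f and Retnla gates. Without those gates, Egln3 and Arg2 in knockout over control gated cells were -0.45 and -0.60. In that comparison Fdps was 0.67 after thinning. Hp in gated over other control C1q cells was 0.54. Smaller ratios also changed sign and are not all listed. Cd44 in knockout gated over other Csf1r cells, at 0.98, went down to -0.31. The 9 knockout gated cells limit every value from them.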
